A study of Mus musculus with 3 samples.

Results

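The stefin A cluster is a tandem array of small genes on mouse chromosome 16 that encode cysteine protease inhibitors. The 9 entries Stfa1, Stfa2, Stfa2l1, Stfa3, BC100530, BC117090, Gm5416, Gm5483 and 2010005H15Rik were taken by gene symbol, and all 9 were found, each as 1 entry, among 23282 entries of the deposited files. Of them, 7 had at least 30 reads over the libraries and entered the test, while Gm5416 and 2010005H15Rik had fewer. The data are 3 RNA sequencing libraries of bone marrow cells from the vehicle arm of a study of haematopoietic stem cells and the herbal drug Asari Radix et Rhizoma. The donors were wild type male mice of the inbred strain C57BL/6, 6 weeks old, given sterile water by gavage for 28 days and harvested on day 29, and red cells had been lysed. Samples given the herb were not analysed here and no treatment is compared. Whether each library stands for its own mouse is not stated. The p-values measure only whether reads depart from counting noise between these libraries, and such departures may be technical.

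Stefins are type 1 cystatins, small cytosolic proteins without a secretion signal or disulfide bonds that block papain-like cysteine proteases such as cathepsins B, H, L and S by occupying the active-site cleft. Humans carry a single stefin A gene, CSTA, whereas the mouse locus has been duplicated many times. Mouse stefin A genes are known for their expression in cells of the neutrophil lineage, and human stefin A also for its abundance in squamous epithelium such as epidermis.

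The libraries held 9168435, 8104828 and 9137125 reads in vehicle replicates 1, 2 and 3, and levels are given as reads per 1000000 reads of the library (CPM). The library kit reads transcripts from the polyadenylated end, about 1 fragment per transcript, so CPM is compared between genes without a length correction. Neutrophil markers stood at 85388, 66168 and 87889 CPM summed over the 7 of 8 that were measured, and none was at 0. Markers of epidermis, the other tissue rich in stefin A, summed to 1.53, 2.84 and 2.08 CPM over 5 entries, with Krt1 and Lor at 0. Erythroid markers still held 66180, 98365 and 99517 CPM over 5 entries after lysis, and the ribosomal RNA entry Rn45s took 18.6% to 20.3% of reads.

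In the GENCODE M21 annotation of GRCm38, the build called mm10, the 9 genes lay between positions 36156811 and 36455392 of chromosome 16, a span of 299 kb, all as protein-coding genes. The 5 on the plus strand were, in order, Stfa2l1, Gm5483, Gm5416, 2010005H15Rik and Stfa1, and the 4 on the minus strand were BC117090, BC100530, Stfa2 and Stfa3. RefSeq now calls Gm5483 Cstdc4, BC100530 Cstdc5, BC117090 Cstdc6, Gm5416 Csta3 and 2010005H15Rik Csta2. Each coding sequence had 3 coding exons and between 291 and 312 bases, and the 36 pairs ranged in identity from 73.4% for Stfa2l1 and Stfa1 to 98.0% for Stfa1 and BC100530. The copies fell into close sets. Stfa2l1 and Stfa2 were 96.5% identical, Gm5483 and 2010005H15Rik 96.9%, and BC117090 was 93.5% identical to Stfa1 and 95.2% to BC100530. Stfa3 was at most 81.7% identical to any other member, and Gm5416 at most 88.4%.

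**Figure D1:**
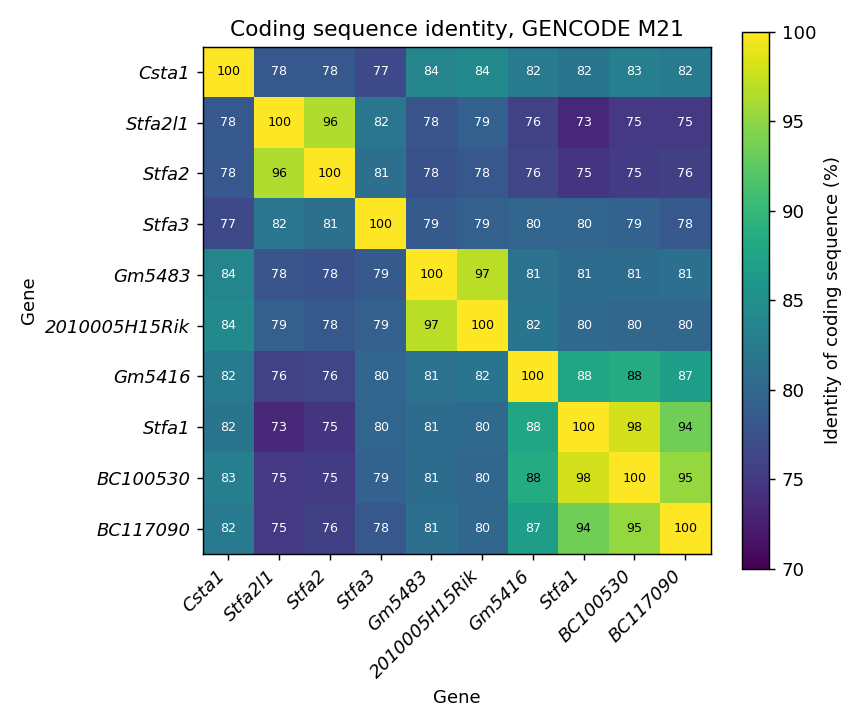
Identity of the coding sequences of the 9 genes and the neighbouring Csta1, in percent of aligned positions, from 70% (dark) to 100% (light). The sets Stfa2l1 with Stfa2, Gm5483 with 2010005H15Rik, and Stfa1 with BC100530 and BC117090 stand out, each pair at 93.5% or more.

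Reads of this library type come from the end of the transcript, which may also hold bases after the stop codon. The last 60 bases of each coding sequence, stop codon included, show how close the copies are in part of that end. They are printed 5′ to 3′ from the GENCODE transcripts, in lower case, with capitals where a base is not that of Gm5483, the most abundant member.
Gm5483: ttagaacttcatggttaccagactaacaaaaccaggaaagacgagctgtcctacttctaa
2010005H15Rik: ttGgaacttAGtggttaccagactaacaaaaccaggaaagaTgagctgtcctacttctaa
Stfa2l1: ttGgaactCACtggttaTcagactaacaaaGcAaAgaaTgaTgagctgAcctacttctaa
Stfa2: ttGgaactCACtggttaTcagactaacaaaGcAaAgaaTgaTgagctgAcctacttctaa
Stfa3: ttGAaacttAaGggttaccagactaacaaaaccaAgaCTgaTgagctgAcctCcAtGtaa
Gm5416: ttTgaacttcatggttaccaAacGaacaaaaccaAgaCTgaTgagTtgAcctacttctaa
Stfa1: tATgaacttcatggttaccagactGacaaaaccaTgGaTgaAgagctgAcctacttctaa
BC100530: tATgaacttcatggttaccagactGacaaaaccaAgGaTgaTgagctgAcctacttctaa
BC117090: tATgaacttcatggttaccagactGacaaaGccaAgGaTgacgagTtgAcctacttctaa
The coding ends of Stfa2l1 and Stfa2 had 0 differences over these 60 bases, those of Stfa1 and BC100530 had 2, and those of Gm5483 and 2010005H15Rik had 4. With bases after the stop codon included, the last 300 transcript bases of these pairs were 70.8%, 98.7% and 92.7% identical, in the same order. Unpaired bases count as differences here, and the annotated transcripts of Stfa2l1 and Stfa2 end 81 and 35 bases after the stop codon. The 70.8% thus includes that offset of the annotated ends and does not measure divergence of sequence alone. Over the last 300 bases of the annotated transcripts, 66.1% of the 50-base windows of BC100530 also occurred in a transcript of another gene, as did 51.0% for Stfa1 and 45.4% for BC117090. For Gm5483 and 2010005H15Rik the share was 33.9%, for Stfa2 25.1% and for Stfa2l1 24.3%, while Stfa3 and Gm5416 had 0 such windows. No source used here gives the read length or the handling of reads that match several places, so how reads were divided within these sets is uncertain, and so are the levels of single copies in them. BC100530 also overlaps the antisense gene Gm15845 and 2010005H15Rik overlaps the pseudogene Gm10813 on the opposite strand, and no source used here says whether counting used strand, so these levels are uncertain for that reason too.

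Near-equal reads, as entries that count the same reads would have, were not seen among the members. A pair counted as near-equal when its reads lay within 2% of each other in every library, and 0 of the 36 pairs did. The closest pair was Stfa1 and BC100530, with reads 13.8%, 26.5% and 11.4% apart in replicates 1, 2 and 3. Elsewhere in the files, 22 pairs of neighbouring entries met the rule, none with a member. Stfa2l1 and Stfa2, identical over the 60 bases above, differed several-fold in reads, with 347, 203 and 404 reads for Stfa2l1 against 14, 23 and 65 for Stfa2. Gm5483 and 2010005H15Rik were further apart still, with 536, 420 and 479 reads for Gm5483 against 4, 0 and 3 for 2010005H15Rik.

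The family as a whole was a small part of these marrow libraries. Gm5483 and Stfa2l1 led it in every library, Stfa1, BC100530, Stfa3 and BC117090 followed, and Gm5416 and 2010005H15Rik were barely detected. Stfa2l1, Stfa1, BC100530 and Stfa2 differed between libraries by more than counting noise, as 55.6% of all entries tested did, while Gm5483 did not pass that test. The 9 entries together held 1324, 930 and 1454 reads in vehicle replicates 1, 2 and 3. That is 144 CPM in replicate 1 (exact 95% Clopper-Pearson interval 137 to 152), 115 CPM in replicate 2 (107 to 122) and 159 CPM in replicate 3 (151 to 168), with a mean of 139 ± 22.6 CPM (SD, n = 3). Replicate 2 was lowest and replicate 3 highest, and the 3 intervals overlapped only between replicates 1 and 3. These intervals cover counting error only, since no molecular identifiers are named. The neutrophil alarmin gene S100a8 alone had 207, 177 and 205 times the reads of the whole family. In bulk marrow, fewer cells of a type and less RNA per cell cannot be told apart.

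Gm5483, RefSeq's cystatin domain containing gene 4, was the most abundant member in every library and the most even of the 7 tested. It had 58.5, 51.8 and 52.4 CPM in replicates 1, 2 and 3, a mean of 54.2 ± 3.67 CPM (SD, n = 3). Its libraries spanned a 1.13-fold range. It did not pass the test (adjusted p = 0.172, exact binomial test). Here 1 library at a time is set against the sum of the others, and p-values carry Benjamini-Hochberg adjustment over 11833 entries with a threshold of 0.05, so the test is of counting noise. A range at least as wide was seen in 89.6% of the entries tested.

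Stfa2l1, a close copy of Stfa2, was second. It had 37.8, 25.0 and 44.2 CPM in replicates 1, 2 and 3, a mean of 35.7 ± 9.76 CPM (SD, n = 3). Replicate 2 lay well under the other libraries, and the difference passed the test (adjusted p = 3.56e-09, exact binomial test). The range was 1.77-fold, and without replicate 2 the adjusted p was 0.0836.

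Stfa1 and BC100530, the closest pair in coding sequence, came next and ran side by side. Stfa1 had 15.1, 12.6 and 19.3 CPM, a mean of 15.6 ± 3.38 CPM (SD, n = 3), with an adjusted p of 0.00947 in the exact binomial test. BC100530 had 12.98, 9.25 and 17.1 CPM, a mean of 13.1 ± 3.91 CPM, with an adjusted p of 0.00132 in the same exact test. In both, replicate 3 was highest and replicate 2 lowest. Stfa1 exceeded BC100530 by a factor of 1.16, 1.36 and 1.13 in the 3 libraries. Neither passed the test without replicate 2 (adjusted p = 0.0789 for Stfa1 and 0.0672 for BC100530, exact binomial test) or without replicate 3 (0.312 and 0.0630).

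Stfa3 and BC117090 had the same order of libraries but did not pass the test. Stfa3, the most divergent of the expressed copies, had 10.5, 8.14 and 10.7 CPM in the 3 libraries, with an adjusted p of 0.286 by the exact binomial test. BC117090, of the Stfa1 set, had 6.65, 4.32 and 7.004 CPM (adjusted p = 0.0834, exact binomial test). With 260 and 160 reads over the 3 libraries, the counting intervals of replicates 1 and 3 overlapped those of replicate 2 in both genes.

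Stfa2 varied most of all tested members. It had 1.53, 2.84 and 7.11 CPM in replicates 1, 2 and 3, from 14, 23 and 65 reads, a mean of 3.83 ± 2.92 CPM (SD, n = 3). Replicate 3 stood apart, since its interval of 5.49 to 9.07 CPM lay above those of replicate 1 (0.835 to 2.56) and replicate 2 (1.799 to 4.26). The 4.66-fold range passed the test (adjusted p = 1.11e-07, exact binomial test), and 2.15% of all entries tested had a range at least as wide. Without replicate 3 Stfa2 did not pass (adjusted p = 0.176, exact binomial test). Unlike the other tested members it was lowest in replicate 1, not in replicate 2.

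The last copies were close to the limit of detection. Gm5416 had 9, 6 and 9 reads, or 0.982, 0.740 and 0.985 CPM in replicates 1, 2 and 3. In GENCODE its transcript ends at the stop codon with 0 bases after it, against 35 to 81 bases for the other members; its level was not corrected for this. 2010005H15Rik had 4, 0 and 3 reads, and the 0 in replicate 2 allows up to 0.370 CPM at the level of 3 reads, or 0.455 CPM by the upper bound of the exact two-sided interval.

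**Figure D2:**
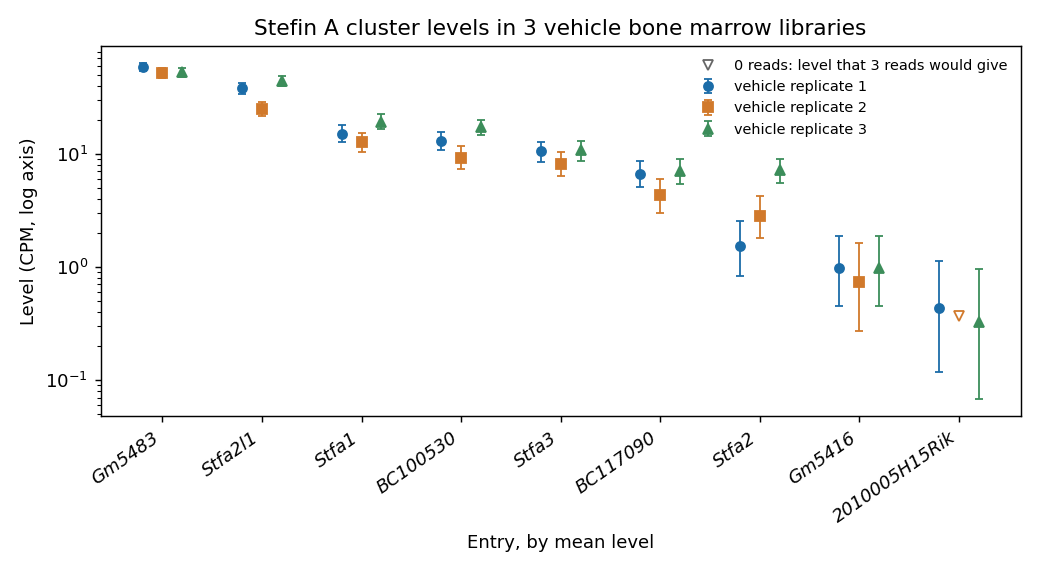
Level of each of the 9 entries (CPM, log axis) in vehicle replicates 1, 2 and 3, ordered by mean, with exact 95% Clopper-Pearson intervals as bars; the open triangle marks the 0 of 2010005H15Rik at the level of 3 reads. Gm5483 at 51.8 to 58.5 CPM is flat, and Stfa2 at 1.53 to 7.11 CPM has the widest spread of the tested members.

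The order of the levels was Gm5483, Stfa2l1, Stfa1, BC100530, Stfa3, BC117090, Stfa2, Gm5416 and 2010005H15Rik. Each neighbour in it kept its place in 3 of 3 libraries, except that Stfa2 and BC117090 were level in replicate 3, at 65 and 64 reads. The ranges over libraries did not overlap between Gm5483 and Stfa2l1, between Stfa2l1 and Stfa1, or between Stfa3 and BC117090. Nor did they overlap between Stfa2 and Gm5416 or between Gm5416 and 2010005H15Rik, though the counting intervals of the last pair did. They overlapped between Stfa1 and BC100530, between BC100530 and Stfa3, and between BC117090 and Stfa2. Both genes of a pair come from the same libraries, so overlap of ranges cannot show whether their levels differ. Within libraries, Stfa1 was above BC100530 and BC100530 above Stfa3 in 3 of 3, the second pair by a factor of 1.24, 1.14 and 1.59 in replicates 1, 2 and 3; no test was made of these ratios.

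Of the 7 tested members, 4 differed between libraries by more than counting noise, namely Stfa2l1, Stfa1, BC100530 and Stfa2. A share of 4 in 7 is near the background of 55.6% of all entries tested. The same 4 members passed with trimmed-mean (TMM) scaling, where 50.8% of all entries did. The median coefficient of variation was 24.4% for the 7 tested members and 17.1% for all entries tested. Without replicate 1 the count was 4, with 34% of all entries called. It was 1 without replicate 2, with 38.4% of all entries called, and 1 without replicate 3, with 37.9%.

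The lowest and the highest library were shared by more members than the calls were, though close copies may share reads. Replicate 2 was lowest for 6 of the 7 tested members, and for 37.6% of all entries tested. Replicate 3 was highest for 6 of the 7, and for 22.8% of all entries tested, the exception being Gm5483 with replicate 1 highest. Stfa3 had 98 reads in replicate 3 against 96 in replicate 1, and BC117090 64 against 61, so both were near ties. With TMM scaling replicate 3 was highest for all 7, Gm5483 included, against 33.7% of entries, and replicate 2 was still lowest for 6. On library totals the median over genes lay 0.09 higher on the log2 scale in replicate 1 than in the mean of the libraries, against 0.00 with TMM. Gm5483 was nearly level on that scale, at 54.7, 52.8 and 54.9 CPM.

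**Figure D3:**
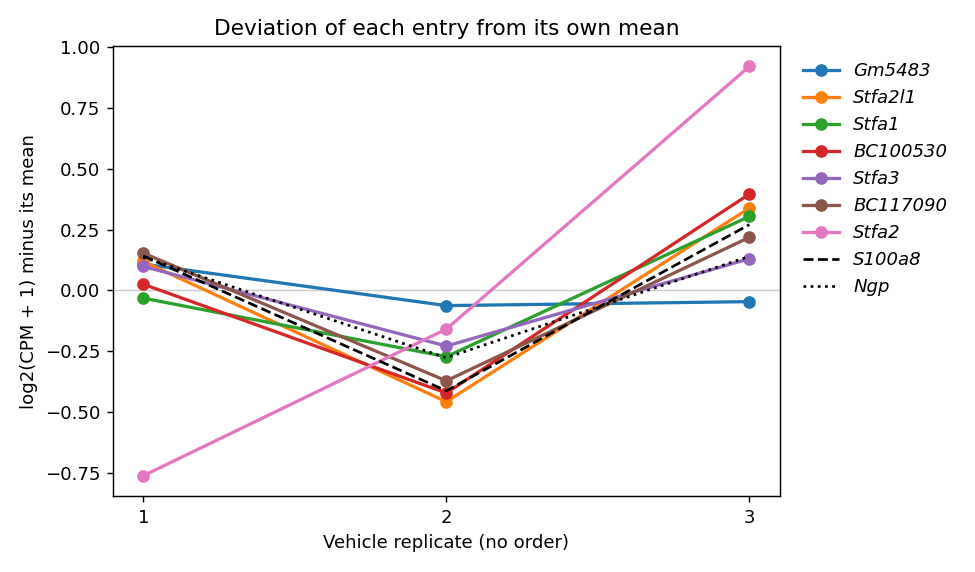
log2(CPM + 1) of the 7 tested members in each vehicle replicate, minus the mean of the member over the 3 libraries, with the neutrophil genes S100a8 (dashed) and Ngp (dotted); lines only join points of 1 gene, as replicates have no order. Stfa2l1, Stfa1, BC100530, BC117090 and Stfa3 dip in replicate 2 as S100a8 and Ngp do, Gm5483 stays near 0, and Stfa2 is lowest in replicate 1.

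Shares within the family do not depend on how libraries are scaled. Gm5483 made up 40.5%, 45.2% and 32.9% of the family's reads in replicates 1, 2 and 3. Stfa2l1 made up 26.2%, 21.8% and 27.8%, so Gm5483 exceeded it by a factor of 1.54, 2.07 and 1.19. Stfa2 made up 1.06% (exact 95% Clopper-Pearson interval 0.579 to 1.77), 2.47% (1.57 to 3.69) and 4.47% (3.47 to 5.66). Stfa3 kept nearly the same share, at 7.25%, 7.10% and 6.74%. Stfa1 held 10.4%, 11.0% and 12.1%, BC100530 8.99%, 8.06% and 10.7%, and BC117090 4.61%, 3.76% and 4.402%. Replicate 3 thus carried relatively less Gm5483 and more Stfa2 than the other libraries. Without Gm5483, the other 8 entries summed to 85.9, 62.9 and 107 CPM, a 1.70-fold range, against 1.39-fold for the whole family.

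**Figure D4:**
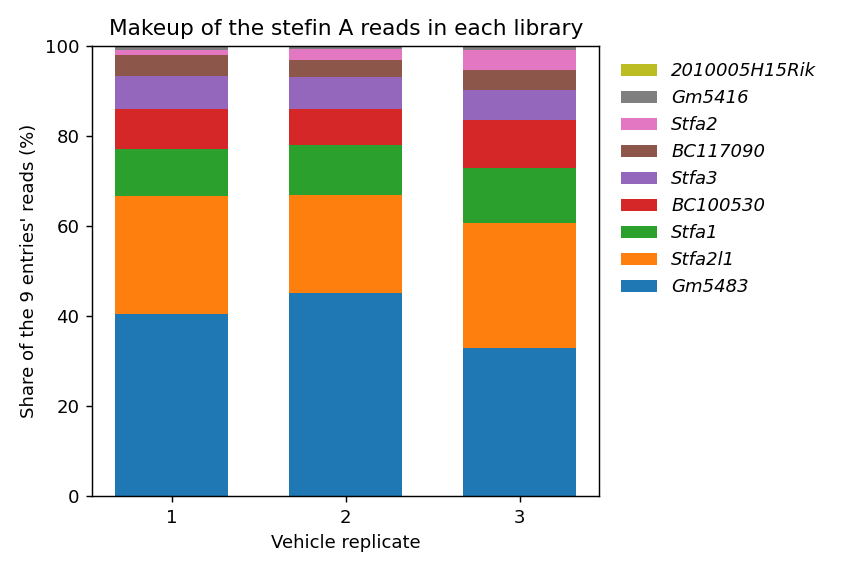
Share of the reads of the 9 entries that each entry held, in percent, in vehicle replicates 1, 2 and 3. Gm5483 and Stfa2l1 together hold most of each bar, and Stfa2 is thickest in replicate 3 at 4.47%.

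Position in the array and level did not run in parallel. The first genes of the plus-strand run, Stfa2l1 and Gm5483, were the highest, yet Gm5416 and 2010005H15Rik, next along the same strand, were the lowest of all. The members of the minus-strand run averaged 5.99 CPM for BC117090, 13.1 for BC100530, 3.83 for Stfa2 and 9.78 for Stfa3. Csta1, another stefin A type gene next to Stfa2l1 on the opposite strand, had 2, 0 and 1 reads. The pseudogene Gm6815, between Gm5483 and Gm5416, had 0, 1 and 0 reads. Casr, the calcium-sensing receptor gene beyond Stfa3, had 0 reads in every library. Beyond Csta1, Ccdc58 had 7.31, 7.28 and 3.502 CPM.

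**Figure D5:**
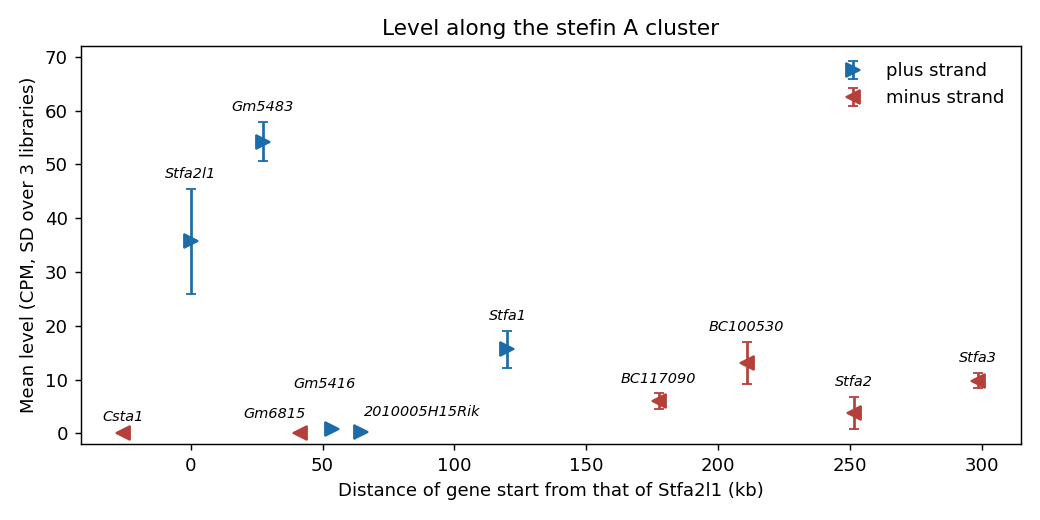
Mean level (CPM, bars show the SD over 3 vehicle libraries) against the distance of each gene's start from that of Stfa2l1, in kb, with arrowheads for the strand. Stfa2l1 and Gm5483 stand highest, at 35.7 and 54.2 CPM, and Gm5416 and 2010005H15Rik just after them are near 0.

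The promoters were compared because the members are tandem copies whose levels ran from under 1 to over 50 CPM. RefSeq's promoter table for GRCm38.p6 held windows of 300 bases, 250 before and 50 after the gene's start, for 8 of the 9 members, BC117090 being the other. The windows of Stfa2l1 and Stfa2 were 90.5% identical, those of Stfa1 and BC100530 83.8%, and those of Gm5483 and Stfa2l1 71.1%. Unpaired bases count as differences in these values. The windows are placed by RefSeq's start, which sits differently in some copies, Stfa1 and BC100530 among them, as the runs below show. The values thus mix placement of the start with sequence, and their order does not rank the pairs by sequence alone. That of 2010005H15Rik was only 38.7% identical to that of its near copy in coding sequence, Gm5483. The annotated transcript of 2010005H15Rik had 5 exons, 3 of them coding, against 3 exons for Gm5483. For each gene the window nearest to GENCODE's gene start was taken. The window of 2010005H15Rik may therefore not be the counterpart of those of the other members. RefSeq and GENCODE place the starts up to 197 bases apart for these genes. Printed 5′ to 3′ on the gene's own strand are the windows of the most abundant member, of the pair of near copies with unequal levels, and of Stfa1, with capitals marking 2 runs of 13 bases described after them.
Gm5483 (chr16:36183962-36184261, plus strand): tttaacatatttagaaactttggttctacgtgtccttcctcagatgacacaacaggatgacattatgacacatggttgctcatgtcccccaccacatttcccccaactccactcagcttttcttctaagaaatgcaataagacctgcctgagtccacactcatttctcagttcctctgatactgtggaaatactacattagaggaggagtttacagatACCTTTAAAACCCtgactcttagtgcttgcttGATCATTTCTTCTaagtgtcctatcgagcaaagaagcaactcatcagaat
Stfa2l1 (chr16:36156561-36156860, plus strand): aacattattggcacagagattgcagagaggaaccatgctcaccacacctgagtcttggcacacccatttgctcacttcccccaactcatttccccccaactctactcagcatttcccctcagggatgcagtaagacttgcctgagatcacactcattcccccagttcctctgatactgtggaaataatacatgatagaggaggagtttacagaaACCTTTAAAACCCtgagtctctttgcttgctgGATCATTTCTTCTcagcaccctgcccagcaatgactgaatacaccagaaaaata
Stfa2 (chr16:36408314-36408613, minus strand): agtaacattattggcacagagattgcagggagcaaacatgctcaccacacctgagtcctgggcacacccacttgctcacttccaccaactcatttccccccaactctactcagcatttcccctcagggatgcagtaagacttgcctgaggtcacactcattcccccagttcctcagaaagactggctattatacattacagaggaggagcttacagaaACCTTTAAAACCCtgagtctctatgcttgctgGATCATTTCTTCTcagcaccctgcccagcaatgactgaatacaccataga
Stfa1 (chr16:36276898-36277197, plus strand): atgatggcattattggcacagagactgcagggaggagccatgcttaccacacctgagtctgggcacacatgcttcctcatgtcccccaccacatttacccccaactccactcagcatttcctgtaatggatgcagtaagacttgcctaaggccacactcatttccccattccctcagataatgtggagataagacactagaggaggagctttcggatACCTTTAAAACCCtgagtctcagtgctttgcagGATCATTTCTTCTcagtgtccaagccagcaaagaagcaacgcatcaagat
The capitals are ACCTTTAAAACCC and GATCATTTCTTCT, the 2 longest runs held by at least 7 of the 8 windows, found from these sequences. Both were in every window but that of 2010005H15Rik. Searched on both strands, ACCTTTAAAACCC was in 0.0296% of all promoter windows, that is 8 of 27025 genes with 1 window each, and GATCATTTCTTCT was in 0.0333%, that is 9 genes. Apart from members, Gm7260, which lies between BC100530 and Stfa2, held both, and 1700010I02Rik on chromosome 3 held the second. ACCTTTAAAACCC began 36 bases before RefSeq's start for Stfa2l1, 34 for Stfa3, 33 for Stfa1, and 32 for Gm5483 and Stfa2. It began 80 bases before the start for Gm5416 and 12 for BC100530. GATCATTTCTTCT followed at a nearly fixed distance, its first base 33 bases on in Stfa1 and BC100530 and 32 in the other 5 members that held both. TTTAAAA, which lies within the first run, was in 7 of 8 windows and in 8.65% of all, and the TATA box TATAAA was in 0 of 8 and in 14.2% of all. GAGGAA, the core read by the myeloid factor PU.1, was in 6 of 8 and in 28.3% of all. TTGCNNAA, the form of C/EBP sites where N is any base, was in 3 of 8 and in 10.8% of all. The near copies Stfa2l1 and Stfa2 both carried the 2 runs, with mean levels of 35.7 and 3.83 CPM. Such matches describe letters in a window and are not shown to be binding sites.

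The profiles over the 3 libraries were set beside those of other genes by the root mean square difference of log2(CPM + 1), each gene centred on its own mean. Among 2767 entries with a mean of at least 50 CPM, the closest to Gm5483 were Ppm1a, Cox8a, Ptges3, Cst3 and Cox7a2, at differences of 0.00437 to 0.00482. Ppm1a encodes a protein phosphatase, Ptges3 a chaperone partner, and Cox8a and Cox7a2 subunits of cytochrome c oxidase. A flat profile is common, and 1125 entries lay within 0.1 of Gm5483. By contrast, 28 lay within 0.1 of Stfa2l1, a gene set beside others after its values were seen. The closest to it were S100a11, Tmem258, Tecr, Def6 and Elane, at 0.0115 to 0.0357, and S100a8 lay at 0.0486. Among the members, Stfa2l1 and BC100530 were the closest, at 0.0669, and every distance of Stfa2 to another member was 0.556 or more. With 3 libraries these are descriptions only.

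Stfa2l1 and S100a8, the gene of a neutrophil calcium-binding protein, kept nearly the same ratio, a pair set side by side after their values were seen. For every 1000 reads of S100a8 there were 1.27, 1.23 and 1.35 reads of Stfa2l1 in replicates 1, 2 and 3. S100a9 varied less, with a coefficient of variation of 9.10%, against 23.4% for S100a8 and 27.3% for Stfa2l1. The profile of BC117090 lay closer to that of S100a8, at 0.0391, than that of Stfa2l1 did, and Stfa2l1 lay at 0.155 from Ngp, a granule protein gene. Gm5483 had 1.96, 2.55 and 1.61 reads per 1000 of S100a8, highest in replicate 2. Neutrophil genes as groups were lowest in replicate 2 as well. The counts that follow stand beside 55.6% of all entries tested that differed and 37.6% that were lowest in replicate 2. The 8 mature neutrophil genes summed to 73364, 57112 and 76182 CPM, with 8 of 8 differing and 8 of 8 lowest in replicate 2. The highest of them were S100a9, S100a8 and the resistin-like gene Retnlg, the last at 2515, 2046 and 2406 CPM. The 8 secondary and tertiary granule genes summed to 18808, 14373 and 18233 CPM, also with 8 of 8 differing and lowest in replicate 2, led by Ngp, Camp and the lactoferrin gene Ltf. The 5 primary granule genes summed to 2053, 1403 and 1817 CPM, with 5 of 5 differing and lowest in replicate 2, led by Mpo, Elane and Prtn3. Eosinophil markers summed to 1402, 661 and 1783 CPM over 3 genes, nearly all from Prg2 and Epx, which were lowest in replicate 2. The third, Siglecf, was lowest in replicate 3, at 9.49, 7.28 and 5.69 CPM. Summed markers of basophils and mast cells were lowest in replicate 2 too, at 94.5, 55.4 and 73.7 CPM. So were those of T and NK cells, mostly Nkg7, at 53.3, 39.5 and 59.0 CPM. Monocyte and macrophage markers, at 969, 846 and 854 CPM, were also lowest there. Sums for B cells and megakaryocytes were lowest in replicate 3, and those for erythroid cells and epidermis in replicate 1. The part of cell makeup in the differences of the stefin genes was not tested.

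Genes of lysosomal cysteine proteases were more abundant than the stefins. The list held 11, namely papain-like cathepsins, the class that stefins act on, and legumain, an asparaginyl endopeptidase. Replicate 2 was lowest for 4 of the 11, near the 37.6% of all entries tested. The 9 stefin entries had 144, 115 and 159 CPM, against 863, 828 and 793 CPM for these 11 genes, which is 5.97, 7.21 and 4.98 times as much. Cathepsin S, Ctss, a protease of antigen-presenting cells, was the highest at 315, 335 and 299 CPM. Cathepsin B, Ctsb, had 168, 176 and 168 CPM, and cathepsin H, Ctsh, 144, 122 and 136 CPM. Of the 11, 8 differed between libraries, beside 55.6% of all entries tested. Ctsc, encoding the cathepsin that activates granule serine proteases, had 81.4, 54.8 and 59.9 CPM (adjusted p = 7.54e-11, exact binomial test). The count was 8 with TMM scaling (50.8% of all entries called), 2 without replicate 1 (34%), 6 without replicate 2 (38.4%) and 4 without replicate 3 (37.9%).

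Other cystatins in marrow were led by Cst3, cystatin C, a secreted inhibitor. It had 254, 228 and 230 CPM in replicates 1, 2 and 3, more than all 9 stefin A entries together. Cstb, stefin B, the other cytosolic stefin, had 30.2, 27.9 and 24.7 CPM and did not pass the test (adjusted p = 0.190, exact binomial test). It stood between Stfa2l1 and Stfa1 in mean level. Cst7, cystatin F, an endolysosomal inhibitor of immune cells, had 24.2, 17.8 and 22.5 CPM (adjusted p = 0.0257, exact binomial test). Of the 13 entries, 6 had 0 reads in all libraries, 5 were tested and 2 differed, Cst3 and Cst7, beside 55.6% of all entries tested. With TMM scaling 0 of the 5 passed, beside 50.8% of all entries (adjusted p = 0.927 for Cst3 and 0.0641 for Cst7, exact binomial test). The count was 0 without replicate 1 (34% of all entries called), 1 without replicate 2 (38.4%) and 2 without replicate 3 (37.9%).

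Genes listed as serine protease inhibitors of neutrophils summed to 12.5, 11.3 and 11.1 times the stefin level in replicates 1, 2 and 3. The 9 stefin entries had 144, 115 and 159 CPM, against 1807, 1293 and 1765 CPM for the 7 listed genes. Most of each sum came from Wfdc21, and whether each product inhibits a serine protease was not tested. Wfdc21 led with 1212, 847 and 1219 CPM, followed by Serpinb1a, which inhibits neutrophil elastase, at 303, 252 and 268 CPM and by Slpi, the secretory leukocyte protease inhibitor, at 249, 158 and 242 CPM. Of the 7 genes, 5 differed between libraries, beside 55.6% of all entries tested, and 6 were lowest in replicate 2, beside 37.6%. The count was 5 with TMM scaling (50.8% of all entries called), 3 without replicate 1 (34%), 2 without replicate 2 (38.4%) and 3 without replicate 3 (37.9%).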

How the data were processed

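The submitters' processing notes name Bowtie2, bedtools and mm10; versions, annotation and strand setting are not given in the sources used. Per the labels' protocols, 500 ng of RNA entered a Lexogen QuantSeq kit, whose primer anneals to the poly(A) end. The authors deposited log2 values, 1 file per library, which by their steps are log2(x + 1) of scaled reads. Undoing the log gave whole reads for 100% of values in each library (tolerance 1e-06), and these reads were used throughout. Their totals were smaller than the denominators implied by the authors' scaling, which were 1.12, 1.03 and 1.01 times as large.

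Entries with at least 30 reads were tested against counting noise. The smallest p of 3 exact two-sided binomial tests (1 library against the other 2, doubling the smaller tail) was multiplied by 3, with Benjamini-Hochberg adjustment at 0.05. The test was checked on simulated counts with known changes and counting noise only. That check does not cover further spread between libraries. The design had assumed counts, and without a second group no differential test was run. TMM factors trimmed 30% of ratios and 5% of intensities. Sequences were aligned globally with Biopython 1.88 and tests ran in scipy 1.17.1. Transcripts were the longest coding ones of GENCODE M21. For RefSeq names, members were matched by gene number through GENCODE.

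The members, the 6 gene lists and the tests were chosen with earlier results of these data known. The cystatin list of 15 symbols holds Csta1, which lies in the array, and Csta2 and Csta3, later names of members. Named genes were the members, the 3 most abundant genes of each list, the 5 profiles closest to the most abundant member, and neighbours in the array. Other genes named, such as Ctsc, those with profiles like that of Stfa2l1, cell markers, Rn45s and holders of promoter runs, were not picked by that rule. All but the markers were picked with their values in view. Ly6g was not analysed here. Alternatives covered a chi-square test, scaling and denominators, the pseudocount, the tolerance, the read minimum and leaving out each library.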

Additional observations from a re-analysis of the deposited data

How the results depend on the processing

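The count of 4 members that differed between libraries held with TMM, median-of-ratios and the authors' scaling, with both other denominators, with no read minimum or a minimum of 100 reads, and with a chi-square test, while the share of all entries called ran from 44.3% with no read minimum to 59.9% with 100 reads. When 1 library was left out it lay between 1 and 4. The summed level of the members was 139 CPM, and 207 CPM without ribosomal RNA and globin entries in the denominator, a shift made by the smaller denominator; other scalings gave 133 to 145 CPM and leaving out 1 library 130 to 152 CPM. No pair of members became near-equal at a tolerance of 1% or 5%. The cystatin count of 2 was 0 with TMM scaling and lay between 0 and 2 when 1 library was left out. That of the cathepsins (8) lay between 2 and 6 and that of the serine protease inhibitors (5) between 2 and 3. The granule and mature neutrophil counts stayed within 1.5 times under TMM scaling and when 1 library was left out. Depth limited Gm5416 and 2010005H15Rik, with 24 and 7 reads over all libraries. No paired analysis was possible because there is only 1 group.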
